A study of Mus musculus with 12 samples.

Results

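The 8 genes described here encode proteins that set chloride and pH in nerve and glial cells. They were Slc12a2, Slc12a5 and Slc12a7 (cation-chloride cotransporters), Slc4a3, Slc4a8 and Slc4a10 (bicarbonate transporters), and Car2 and Car7 (carbonic anhydrases). They were chosen by gene symbol, and all probes whose platform symbol was one of the 8 were used. This gave 12 probes, 3 for Slc4a3, 2 each for Slc12a5 and Slc12a7 and 1 each for the rest, among 39239 probes and 21643 genes tested. All 12 probes were above background on 12 of 12 arrays and none was saturated.

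Gene expression was measured on two-colour arrays in 12 mice at postnatal day 14. The strains were Bl6 (C57BL/6J), CSS1 and CSS2, with 4 individual mice each and no treatment named. The names CSS1 and CSS2 are those of chromosome substitution strains, in which a named chromosome of the host comes from a donor strain. Here they were read as strains for chromosomes 1 and 2, which the labels do not spell out, and neither is the donor named. The tissue is labelled hippocampus, and the design text says brains. Every mouse was hybridised against the same pool of Bl6 RNA, and 2 of the 4 mice of each strain carried the opposite dye. Srp9 is the gene that the series title ties to susceptibility to febrile seizures, those that come with fever. The sources used here give no sex, litter or day of dissection.

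In a neuron, the sodium-potassium-chloride cotransporter Slc12a2 (NKCC1) loads chloride and the potassium-chloride cotransporter Slc12a5 (KCC2) extrudes it. Their balance sets whether opening of GABA-A receptor channels depolarises or inhibits the cell, and in rodents it shifts towards extrusion during early postnatal life. Bicarbonate also passes through these channels, so the Slc4 transporters and the carbonic anhydrases, which interconvert carbon dioxide and bicarbonate, act on the same currents and on cell pH. In mice, loss of the neuronal carbonic anhydrase Car7 abolishes seizures evoked by heat, and loss of Slc4a3 lowers the threshold to convulsants.

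None of the 8 genes passed the test for a strain difference, limma with Benjamini-Hochberg adjustment over all 39239 probes and a threshold of 0.05 on the adjusted p. A gene is represented by its brightest probe, called probe 1. In CSS1 against Bl6, 0 of 8 were called, beside 2.03% of all genes. In CSS2 against Bl6, 0 of 8 were called, beside 1.04% of all genes. In CSS1 against CSS2, 0 of 8 were called, beside 0.97% of all genes. At an unadjusted p under 0.05, 2 of 8 passed in CSS1 against Bl6 (Slc4a8 and Car2) and 3 of 8 in CSS2 against Bl6 (Slc12a2, Slc12a5 and Car2), where 12.8% and 9.83% of all genes did. None of 8 passed it in CSS1 against CSS2, where 8.5% of all genes did. With so few calls in the whole table, a count of 0 among 8 is near the background.

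The point estimates mostly lay above Bl6. The difference was positive for 6 of 8 genes in CSS1, where 48.7% of all genes were positive, and for 7 of 8 in CSS2, where 52.5% were. The median difference over the 8 genes was 0.14 log2 in CSS1 and 0.061 log2 in CSS2, beside -0.0017 and 0.0037 over all genes. The median size of a difference regardless of sign was 0.042 over all genes in CSS1 and 0.040 in CSS2. All genes are not a background of equal spread here. The residual SD was 0.18 for Slc12a2, 0.18 for Slc12a5, 0.16 for Slc4a10 and 0.13 for Car2, beside a median of 0.0714 over all genes. Of the 8 genes Slc12a7 alone, at 0.0105, lay below that median. Both contrasts use the same 4 Bl6 mice, so these sets of signs are not independent of each other. The 8 genes were also chosen with earlier results of these data known, so the signs and medians are a description and not a test. Over the pair of CSS strains, where the Bl6 mice do not enter, 4 of 8 were positive and the median was 0.0034 log2.

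The mice of 2 strains did not overlap at probe 1 for 0 of 8 genes in CSS1 against Bl6, beside 8.63% of all genes. In CSS2 against Bl6 they did not overlap for 2 of 8 (Slc12a5 higher, Slc12a7 lower), beside 7.18%. In CSS1 against CSS2 they did not overlap for 0 of 8, beside 6.07%.

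**Figure D1:**
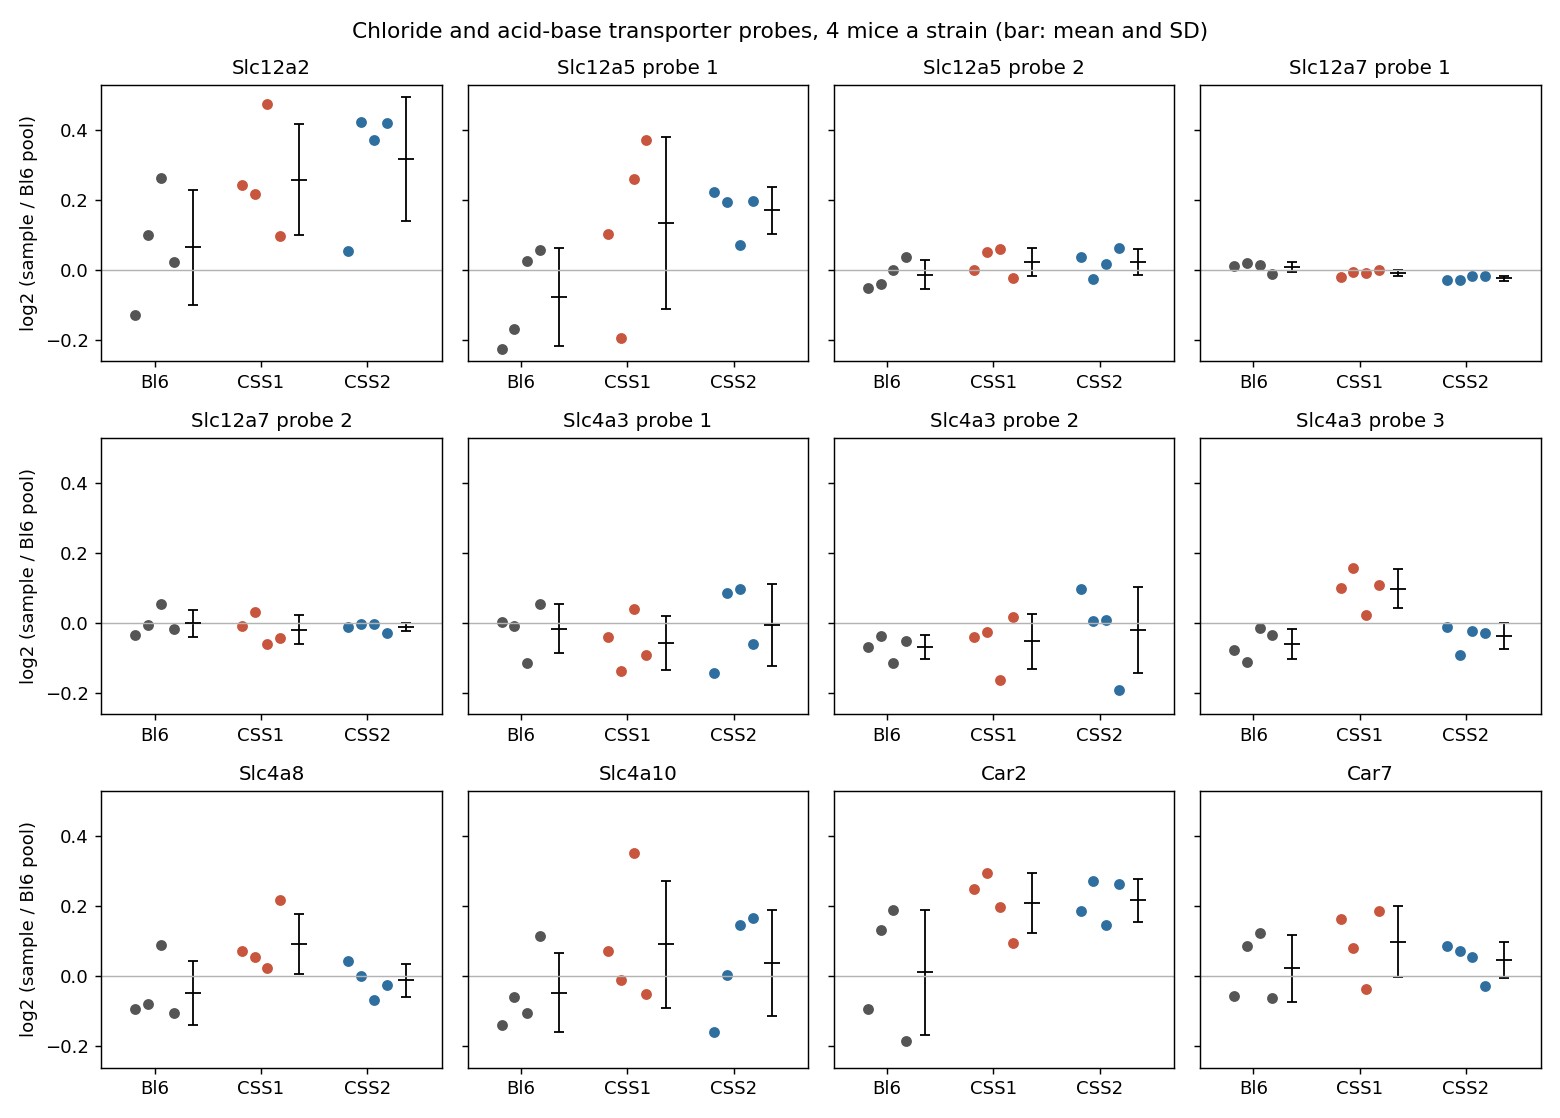
Level of each of the 12 probes in each mouse, as log2 of the sample over the Bl6 pool with the fitted dye effect taken out, on 1 shared axis; points are mice, and bars are the mean and SD of 4. Slc12a2, probe 1 of Slc12a5 and Car2 spread most within Bl6, while both Slc12a7 probes stay within 0.061 of 0 in every mouse.

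The 3 members whose own gene lies on chromosome 1 or 2 are Slc4a3, Slc12a5 and Slc4a10, the ones that a substituted chromosome could carry from the donor. Their promoter windows in C57BL/6J reference sequence are shown so that the Bl6 allele at these genes can be read beside the values. Each line gives the 250 bases before an annotated transcript start (RefSeq, build GRCm38.p6, 5′ to 3′), the start nearest to the gene's own 5′ end where several are annotated, with CG dinucleotides in capitals.
Slc4a3 (chr1:75546212-75546461, + strand): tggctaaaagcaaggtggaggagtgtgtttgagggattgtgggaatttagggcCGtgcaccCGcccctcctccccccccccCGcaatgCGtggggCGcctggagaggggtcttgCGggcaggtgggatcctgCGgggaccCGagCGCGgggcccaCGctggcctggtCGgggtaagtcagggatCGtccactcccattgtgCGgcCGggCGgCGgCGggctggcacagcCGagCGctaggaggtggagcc
Slc12a5 (chr2:164960596-164960845, + strand): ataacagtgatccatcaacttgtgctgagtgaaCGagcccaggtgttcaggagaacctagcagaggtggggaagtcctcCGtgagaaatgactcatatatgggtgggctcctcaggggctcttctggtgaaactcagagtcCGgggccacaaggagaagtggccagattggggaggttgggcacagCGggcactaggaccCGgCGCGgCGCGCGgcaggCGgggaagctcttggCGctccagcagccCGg
Slc4a10 (chr2:62046265-62046514, + strand): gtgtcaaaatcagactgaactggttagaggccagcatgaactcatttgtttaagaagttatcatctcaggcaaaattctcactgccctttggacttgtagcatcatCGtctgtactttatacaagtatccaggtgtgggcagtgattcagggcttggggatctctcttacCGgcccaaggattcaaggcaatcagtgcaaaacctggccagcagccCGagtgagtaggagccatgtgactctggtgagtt
The Slc4a3 window lies within the annotated span of its gene, and that of Slc4a10 overlaps the first bases of its own. CG is the same on both strands. It occurred 20 times in the Slc4a3 window, 13 times in that of Slc12a5 and 3 times in that of Slc4a10. The median over 32851 promoter windows of the same length was 6, and 92.1% held at least 1. The GC content of the windows was 70.0%, 61.2% and 47.6%, beside a median of 52.4%. The donor sequence is not used here.

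Slc12a2, the chloride loader, lies on chromosome 18, 57878512 to 57946821 (GRCm38.p6). Its dye-corrected log2 level was -0.13, 0.098, 0.26 and 0.023 in the 4 Bl6 mice. It was 0.24, 0.22, 0.47 and 0.096 in CSS1 and 0.055, 0.42, 0.37 and 0.42 in CSS2. All 8 CSS mice lay above the level of the pool, and the groups overlapped, since the highest Bl6 mouse exceeded 3 CSS1 mice and 1 CSS2 mouse. The difference from Bl6 was 0.19 ± 0.11 log2 (SE; n = 4 per strain) in CSS1, with an adjusted p of 0.605 and a 95% interval of -0.043 to 0.43. It was 0.25 ± 0.11 in CSS2, with an adjusted p of 0.497 and an interval of 0.016 to 0.49. A single CSS2 mouse, at 0.055, lay apart from the other 3 of its strain.

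Slc12a5, the chloride extruder, lies on chromosome 2, 164960846 to 164999731. At probe 1 its level was -0.23, -0.17, 0.024 and 0.056 in Bl6. It was 0.10, -0.19, 0.26 and 0.37 in CSS1 and 0.22, 0.19, 0.069 and 0.19 in CSS2. The 4 CSS2 mice all lay above the 4 Bl6 mice, the nearest at 0.069 and 0.056, and the CSS1 mice spanned both groups. The difference was 0.21 ± 0.11 in CSS1 (adjusted p = 0.542, limma; interval -0.026 to 0.45) and 0.25 ± 0.11 in CSS2 (adjusted p = 0.514; interval 0.0093 to 0.49).

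The other probe of Slc12a5 did not show a difference of that size. Its level stayed between -0.052 and 0.062 in all 12 mice. It differed by 0.036 ± 0.035 in CSS1 and 0.036 ± 0.035 in CSS2, with adjusted p of 0.845 and 0.869. The upper bounds of its intervals, 0.11 and 0.11, lie below the point estimates of probe 1, while the intervals of probe 1 hold the estimates of probe 2. The sample-channel signal of probe 2 was 242 to 724 intensity units, and that of probe 1 was 5341 to 16320. Because the background offset draws log ratios of dim probes towards 0, probe 2 cannot decide whether the differences at probe 1 hold.

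Within each mouse the log2 level of Slc12a5 (probe 1) minus that of Slc12a2, each relative to the pool, was -0.096, -0.27, -0.24 and 0.033 in Bl6. It was -0.14, -0.41, -0.22 and 0.27 in CSS1 and 0.17, -0.23, -0.30 and -0.22 in CSS2. The strain means were -0.14 ± 0.14, -0.12 ± 0.29 and -0.15 ± 0.21 (SD, n = 4 each), and the Bl6 range lay within that of each CSS strain. This value depends on the Slc12a5 probe used. The dimmer probe 2 had strain means of -0.014 in Bl6, 0.022 in CSS1 and 0.022 in CSS2. Those of Slc12a2 were 0.064, 0.26 and 0.32. The value from probe 1 is a difference from the pool for a pair of probes and not the ratio of the RNAs.

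Slc12a7 (KCC4), another potassium-chloride cotransporter, lies on chromosome 13, 73733052 to 73816754. Its probe 1 read 0.011, 0.018, 0.013 and -0.013 in Bl6. It read -0.020, -0.0075, -0.0089 and -0.0011 in CSS1 and -0.030, -0.031, -0.018 and -0.018 in CSS2. The CSS2 mice all lay below the Bl6 mice, and every value was within 0.031 of the pool. The difference was -0.017 ± 0.025 (adjusted p = 0.927, limma) in CSS1 and -0.031 ± 0.025 (adjusted p = 0.821) in CSS2. As fold changes, the 95% intervals ran from 0.952 to 1.03 and from 0.942 to 1.02. This was the gene with the smallest spread of the 8, a residual SD of 0.0105 log2 beside a median of 0.0714 over all genes, at a signal of 164 to 382 units. Because the background offset draws log ratios of dim probes towards 0, these narrow intervals are not limits on the RNA difference. The other probe differed by -0.019 ± 0.032 and -0.011 ± 0.032, with overlapping groups.

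Slc4a3 (AE3) exchanges chloride for bicarbonate and so links the ions of both groups. It lies on chromosome 1, 75546044 to 75559431, the chromosome read as substituted in CSS1, where 93 of 1178 genes (7.89%) were called in CSS1 against Bl6. At probe 1 its level was 0.0033, -0.0085, -0.11 and 0.054 in Bl6, -0.041, -0.14, 0.040 and -0.091 in CSS1 and -0.14, 0.087, 0.097 and -0.062 in CSS2. The groups overlapped, and the differences were -0.041 ± 0.062 (interval -0.18 to 0.096) and 0.011 ± 0.062 (interval -0.13 to 0.15). Probe 2 overlapped too, at 0.015 ± 0.059 and 0.048 ± 0.059.

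Probe 3 of Slc4a3 read differently from these. It was -0.076, -0.11, -0.015 and -0.036 in Bl6. It was 0.099, 0.16, 0.024 and 0.11 in CSS1 and -0.011, -0.093, -0.022 and -0.028 in CSS2. All 4 CSS1 mice lay above the pool, and all 8 other mice lay below it. The difference was 0.16 ± 0.038 in CSS1 against Bl6 (adjusted p = 0.0716, limma; interval 0.074 to 0.24) and 0.14 ± 0.038 in CSS1 against CSS2 (adjusted p = 0.201). By p it ranked 860 of 39239 probes in CSS1 against Bl6. It passed the threshold under 3 alternatives, with scale normalization between arrays (adjusted p = 0.042), with array weights (0.0112) and without CSS1 replicate 9 (0.0481). It is the dimmest of the 3 probes, at 133 to 286 units beside 892 to 2228 for probe 1. The interval of probe 1 ends at 0.096, below the difference at probe 3 but above the lower bound of its interval, 0.074. So the probes of this gene read differently, with intervals that overlap. Sequence differences between the strains under these probes were not looked at.

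Slc4a8 (NDCBE) brings in sodium and bicarbonate in exchange for chloride and is found at glutamatergic nerve endings. It lies on chromosome 15, 100761747 to 100823971. Its level was -0.096, -0.080, 0.088 and -0.10 in Bl6, 0.073, 0.054, 0.024 and 0.22 in CSS1 and 0.043, 0.00080, -0.069 and -0.025 in CSS2. The 4 CSS1 mice lay above 3 of the Bl6 mice, and the fourth Bl6 mouse lay among them. The difference was 0.14 ± 0.055 in CSS1 (adjusted p = 0.33, limma; interval 0.020 to 0.26) and 0.036 ± 0.055 in CSS2 (adjusted p = 0.935). CSS1 against CSS2 gave 0.10 ± 0.055, with an adjusted p of 0.709.

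Slc4a10 (NCBE) also loads sodium and bicarbonate and is expressed in neurons and in the choroid plexus. Like Slc12a5, it lies on chromosome 2, 62046472 to 62326743, where 76 of 1935 genes (3.93%) were called in CSS2 against Bl6. Its level was -0.14, -0.059, -0.11 and 0.12 in Bl6, 0.072, -0.011, 0.35 and -0.051 in CSS1 and -0.16, 0.0021, 0.15 and 0.17 in CSS2. The strains overlapped throughout. The difference was 0.14 ± 0.099 (adjusted p = 0.736, limma; interval -0.080 to 0.35) in CSS1 and 0.086 ± 0.099 (adjusted p = 0.901; interval -0.13 to 0.30) in CSS2. The fitted dye effect of this probe was -0.58 log2 (Cy5 over Cy3), larger in size than any strain difference among the 12 probes. That effect is removed from the mouse values, and each strain holds both dye orientations equally.

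Car2 is the abundant cytosolic carbonic anhydrase of oligodendrocytes and other glia. It lies on chromosome 3, 14886269 to 14900770. Its level was -0.094, 0.13, 0.19 and -0.18 in Bl6. It was 0.25, 0.30, 0.20 and 0.095 in CSS1 and 0.19, 0.27, 0.14 and 0.26 in CSS2. All 8 CSS mice were above the pool, the Bl6 mice fell on both sides of it, and the groups overlapped. The difference was 0.20 ± 0.080 in CSS1 (adjusted p = 0.353, limma; interval 0.023 to 0.37) and 0.21 ± 0.080 in CSS2 (adjusted p = 0.419; interval 0.031 to 0.38). Between the CSS strains it was -0.0078 ± 0.080, with an interval of -0.18 to 0.17.

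Many markers of myelinating oligodendrocytes rose in both CSS strains. Of 14 listed genes, 13 were measured, 8 were called higher in CSS1 and 7 in CSS2, and none was called lower. The median of the list per mouse was -0.28 to 0.19 in Bl6, 0.55 to 0.69 in CSS1 and 0.43 to 0.84 in CSS2, with no overlap between Bl6 and either CSS strain. Cldn11, a tight junction protein of myelin, differed by 0.81 ± 0.11 (adjusted p = 0.00374, limma) and 0.92 ± 0.11 (adjusted p = 0.00175). Mbp, myelin basic protein, differed by 0.67 ± 0.18 and 0.72 ± 0.18 at its brightest probe without passing (adjusted p = 0.112 and 0.119, limma). Mbp became called under 2 of 22 alternatives in CSS1 and 1 of 22 in CSS2. Its other probes gave between -0.020 and 0.12. They are dimmer, at mean log2 intensities of 10.46 and 6.652 beside 13.22, the lower one near the filter cutoff of 6.23. The Car2 differences of 0.20 and 0.21 stood beside a median difference of the list of 0.67 in CSS1 and 0.70 in CSS2. The calls of Cldn11 were lost without a dye term (adjusted p = 0.148 and 0.113). In such bulk RNA, a change in the number of cells of a type and a change in RNA per cell cannot be told apart, and the part of these markers in the Car2 values was not tested.

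**Figure D2:**
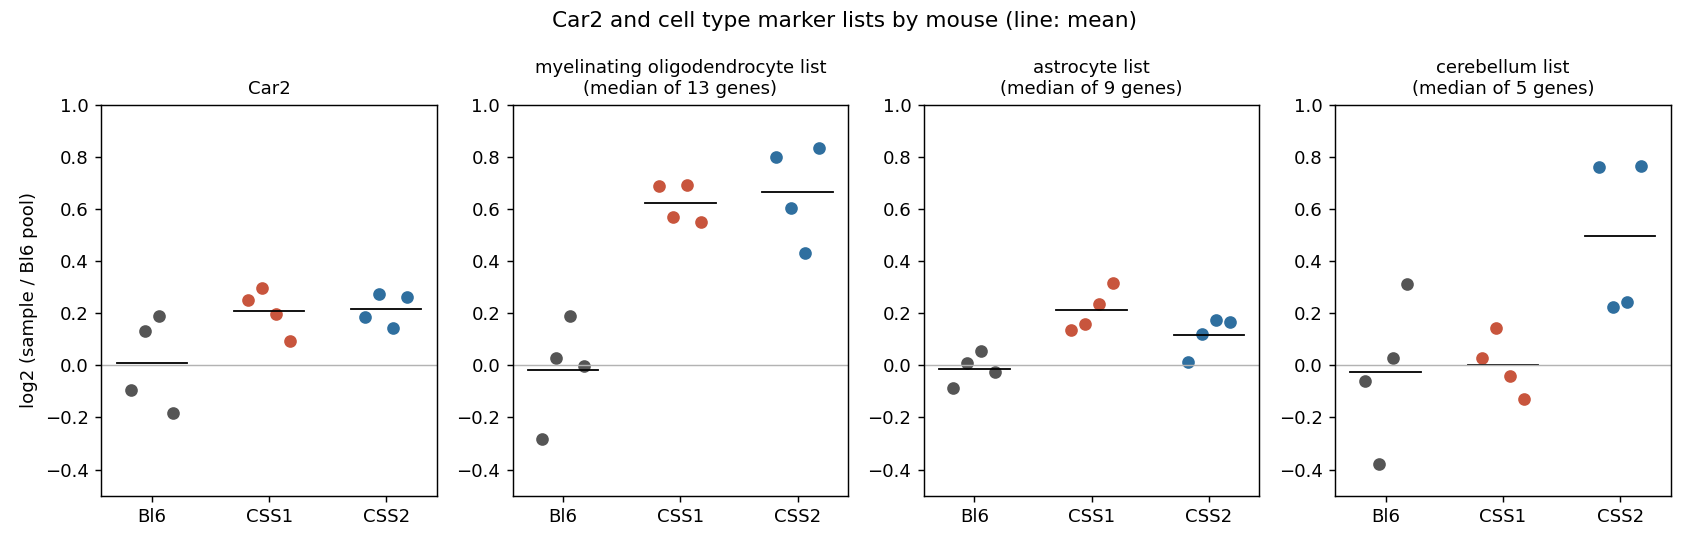
Car2 and the medians of 3 marker lists in each mouse, as log2 of the sample over the Bl6 pool after removal of the dye effect; points are mice and lines are means of 4. The myelinating oligodendrocyte list is separated between Bl6 and both CSS strains, whereas for Car2 both strains overlap Bl6.

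Astrocytes, which also express Slc12a2, Car2 and bicarbonate transporters, were read from 9 markers. Their median per mouse was -0.087 to 0.056 in Bl6, 0.14 to 0.32 in CSS1 and 0.013 to 0.17 in CSS2, with 2 of 9 called higher in CSS1 and 1 of 9 in CSS2. The differences ran from -0.21 to 0.63 in CSS1, with 7 of 9 positive, and from 0.029 to 0.51 in CSS2, with 9 of 9 positive. The brightest, Aldoc and Slc1a3, did not pass, with differences of 0.37 and 0.26 in CSS1 and 0.42 and 0.12 in CSS2. Aldoc became called, higher, under 2 of 22 alternatives in CSS1 and 6 of 22 in CSS2, and Slc1a3 under 2 of 22 in CSS1. Choroid plexus, an epithelium rich in Slc12a2 and Slc4a10, was read from 8 measured markers of 9. None was called in either strain, the median per mouse was -0.071 to 0.049 in Bl6, -0.029 to 0.041 in CSS1 and -0.023 to 0.084 in CSS2, and Ttr differed by 0.071 and 0.069. Enpp2, which oligodendrocytes also express, differed by 0.31 ± 0.13 in CSS1 (adjusted p = 0.359, limma) and 0.30 ± 0.13 in CSS2 (adjusted p = 0.479), the largest differences of that list. Red blood cells, which hold much Car2, were read from 4 measured markers of 8. None was called in either strain, Hemgn differed by 0.033 in CSS1 and -0.054 in CSS2, and Hbb-b1 differed by 0.35 in CSS1 and -0.15 in CSS2 (adjusted p = 0.571 and 0.913, limma).

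All 10 markers of hippocampal principal neurons were above background on 12 of 12 arrays. Their median per mouse was -0.066 to -0.0060 in Bl6, 0.012 to 0.088 in CSS1 and -0.086 to 0.030 in CSS2, and none was called. Neurod6 differed by -0.19 and -0.18 and Wfs1 by 0.10 and 0.0018 in CSS1 and CSS2. Markers of immature neurons, which have high Slc12a2 and low Slc12a5 in early development, had a median of -0.13 to 0.083 in Bl6, -0.26 to -0.15 in CSS1 and -0.20 to -0.014 in CSS2, with 0 of 6 called. Stmn1 differed by -0.23 and -0.081 and Tubb3 by -0.24 and -0.12. The list did not move as a whole. Its differences ran from -0.40 to 0.054 in CSS1, with 2 of 6 positive, and from -0.31 to 0.61 in CSS2, with 1 of 6 positive. Stmn1 became called, lower in CSS1, under 2 of 22 alternatives. Cerebellar markers, not all of which are low in hippocampus, had a median of -0.38 to 0.31 in Bl6, -0.13 to 0.15 in CSS1 and 0.22 to 0.76 in CSS2. All 5 were positive in CSS2 against Bl6, and 0 were called. An unadjusted p under 0.05 (limma) was reached by 5 of 5, beside 9.83% of all genes. The differences ran from 0.18 to 1.81, with Cbln1 at 0.50 and Pcp2 at 0.41. The part of these lists in the transporter values was not tested.

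Car7, the neuronal carbonic anhydrase, lies on chromosome 8, 104534694 to 104550347. Its level was -0.057, 0.086, 0.12 and -0.064 in Bl6. It was 0.16, 0.079, -0.038 and 0.19 in CSS1 and 0.084, 0.071, 0.055 and -0.028 in CSS2. The strains overlapped, and each of them held at least 1 mouse below the pool. The difference was 0.075 ± 0.059 in CSS1 (adjusted p = 0.773, limma) and 0.024 ± 0.059 in CSS2 (adjusted p = 0.965). As fold changes of a CSS strain over Bl6, the 95% intervals ran from 0.962 to 1.15 in CSS1 and from 0.928 to 1.11 in CSS2.

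**Figure D3:**
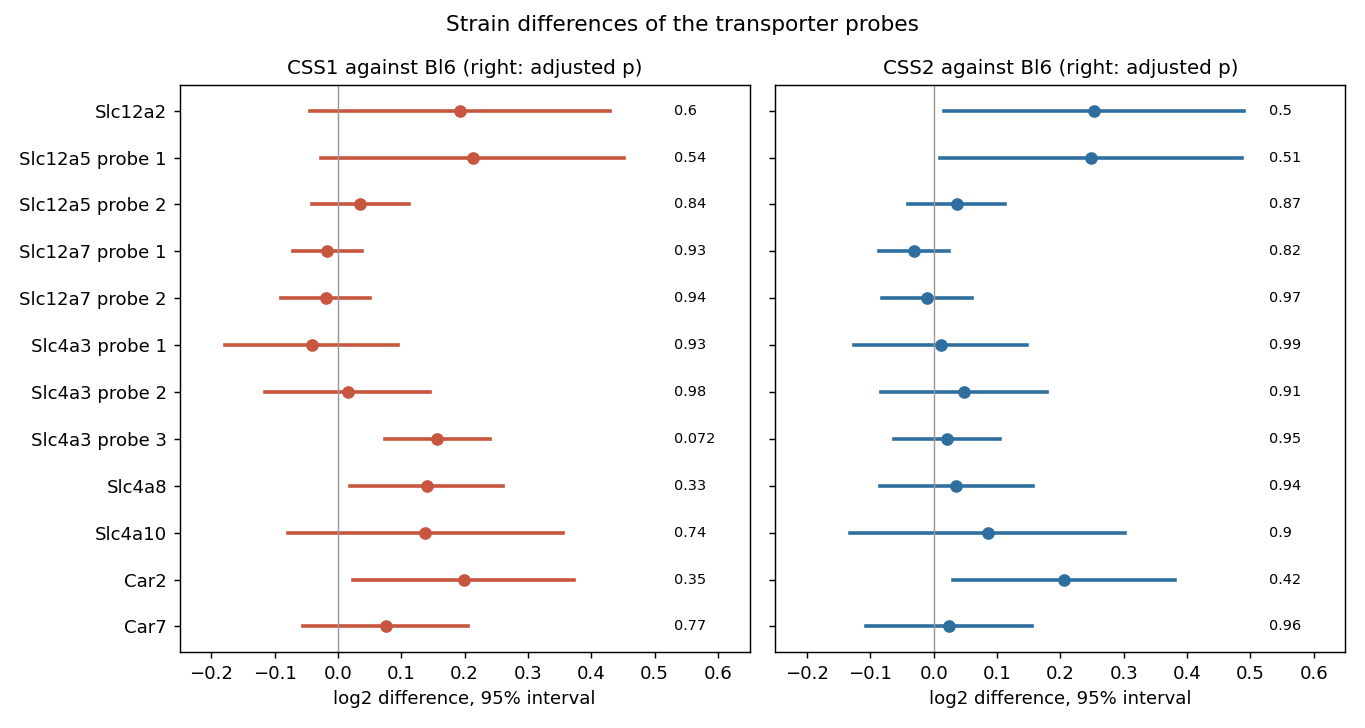
Difference of each CSS strain from Bl6 for the 12 probes, in log2, with the 95% interval of the fit as a line and the adjusted p at the right of each panel. No adjusted p is below 0.05, the lowest is that of Slc4a3 probe 3 in CSS1 (0.0716), and the intervals of Slc12a2, Slc12a5 probe 1 and Slc4a10 are the widest.

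The 8 genes differed in how large an estimated difference had to be for a call. With this spread and this number of calls, a gene needed a 1.4-fold difference for Slc12a2 and a 1.4-fold one for Slc12a5 to be called in CSS1 against Bl6. The figure was 1.28-fold for Car2, 1.2-fold for Car7, 1.36-fold for Slc4a10, 1.19-fold for Slc4a8 and 1.08-fold for Slc12a7. In CSS2 it was 1.44-fold for Slc12a2 and 1.45-fold for Slc12a5. These are sizes that the estimate itself had to reach in this fit, not limits on what true difference could be detected. They move with the number of genes called, which changed under the alternatives. Of all genes, 5.47% had a larger residual SD than Slc12a2, 5.27% a larger one than Slc12a5 and 7.24% a larger one than Slc4a10.

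The other genes of these pathways were read from 8 lists. Of the other cation-chloride cotransporters, 5 of 6 were measured and 0 were called in either CSS strain against Bl6. Their median difference was 0.085 in CSS1 and 0.0061 in CSS2. The potassium-chloride cotransporter Slc12a4 (KCC1), with the lowest p of the list over both strains, read -0.047, -0.051, -0.17 and 0.039 in Bl6, 0.032, 0.0074, 0.13 and -0.013 in CSS1 and 0.12, 0.070, 0.061 and 0.069 in CSS2. The CSS2 mice all lay above the Bl6 mice, and the difference was 0.14 ± 0.046 (adjusted p = 0.319, limma).

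No gene of the next 4 lists was called in either strain. Of other bicarbonate transporters 9 of 10 were measured, with a median difference of 0.027 in CSS1 and 0.0077 in CSS2, and Slc26a11, an anion transporter, differed by 0.10 and 0.12. Of other carbonic anhydrases 13 of 14 were measured, with medians of 0.040 and 0.047 and a range of -0.11 to 0.44 in CSS2. The membrane-bound Car14 had the lowest p of that list over both strains, through CSS2, and differed by 0.093 in CSS1 (adjusted p = 0.307, limma) and 0.15 in CSS2 (adjusted p = 0.107). In CSS1 alone the lowest p was that of Car12, another membrane-bound member, which differed by 0.25 ± 0.069 (adjusted p = 0.121) and was named after its values were seen.

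Sodium-proton exchangers, which expel acid, were measured for 7 of 9 genes, with medians of 0.012 and 0.040. The intracellular exchanger Slc9a7 differed by -0.060 and -0.11 at its brightest probe, and by -0.00080 and -0.16 at the other (adjusted p = 0.0848 in CSS2, limma). All 6 monocarboxylate-proton cotransporters and their chaperones were measured, with medians of 0.0056 and 0.048. Emb (embigin), a chaperone of these carriers, read -0.060, 0.0024, 0.027 and -0.0087 in Bl6, 0.23, 0.28, 0.48 and 0.093 in CSS1 and 0.072, 0.23, 0.19 and 0.34 in CSS2. All CSS mice lay above all Bl6 mice, but the differences of 0.28 ± 0.076 and 0.22 ± 0.076 did not pass (adjusted p = 0.116 and 0.338). Emb became called in CSS1 under 2 of 22 alternatives.

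Among 15 regulators and partners of cation-chloride cotransport, all measured, 1 was called in CSS1, 0 higher and 1 lower, and 0 were called in CSS2. The gene was Neto2, on chromosome 8, an auxiliary subunit of kainate receptors that also binds Slc12a5 protein. It read 0.086, 0.13, 0.18 and 0.13 in Bl6, -0.059, -0.20, -0.19 and -0.22 in CSS1 and -0.26, -0.073, -0.044 and -0.044 in CSS2. All 8 CSS mice lay below the pool and all 4 Bl6 mice above it. In CSS1 it fell by 0.30 ± 0.055 log2 (adjusted p = 0.0198, limma), and the second probe fell by 0.30 ± 0.060 (adjusted p = 0.0318). In CSS2 the differences were -0.24 ± 0.055 and -0.28 ± 0.060, with adjusted p of 0.0907 and 0.0623. Neto2 became called in CSS2 under 1 of 22 alternatives, the mean over the probes of a gene (adjusted p = 0.0452, limma). CSS1 against CSS2 gave -0.062 ± 0.055 (adjusted p = 0.885), so a difference between the CSS strains was not shown. The call in CSS1 was lost under 9 of 22 alternatives, with the adjusted p between 0.00482 and 0.293. Among these were the fits without Bl6 replicate 2, 5 or 11 and without CSS1 replicate 6, 9 or 12, with adjusted p of 0.0565, 0.0662, 0.0561, 0.0533, 0.0586 and 0.0525.

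Among 21 genes listed as chloride channels, all measured, 1 was higher and 1 lower in CSS1, and 1 was higher in CSS2. The list is broad and holds relatives of channels, so a place on it does not show that a protein conducts chloride. Ano1, a calcium-activated chloride channel, read 0.054, -0.0044, -0.010 and -0.026 in Bl6, -0.25, -0.30, -0.30 and -0.20 in CSS1 and -0.13, -0.050, -0.097 and -0.16 in CSS2. The 3 strains did not overlap, with CSS2 between the others. Ano1 fell by 0.27 ± 0.037 in CSS1 (adjusted p = 0.00526, limma), and the difference in CSS2 was -0.11 ± 0.037 (adjusted p = 0.289). The CSS1 call was lost under 2 of 22 alternatives, median centring in place of loess (adjusted p = 0.417) and no dye term (0.415). CSS1 against CSS2 gave -0.15 ± 0.037 (adjusted p = 0.12).

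Ttyh2, of the tweety family of membrane proteins, read -0.092, -0.12, -0.018 and -0.036 in Bl6, 0.13, 0.20, 0.20 and 0.14 in CSS1 and 0.23, 0.23, 0.072 and 0.11 in CSS2. At its brightest probe it rose by 0.23 ± 0.045 in CSS1 (adjusted p = 0.0262, limma) and by 0.23 ± 0.045 in CSS2 (adjusted p = 0.0448). Its second probe gave 0.014 ± 0.049 and 0.029 ± 0.049. That probe is dim, at a mean log2 intensity of 6.793 beside 8.985 for the brightest and a filter cutoff of 6.23. The offset used draws log ratios of dim probes towards 0, so this probe cannot decide whether the rise holds. The calls were lost under 9 and 16 of 22 alternatives, with adjusted p up to 0.29 and 0.427. In CSS1 these included the fits without Bl6 replicate 2, 5 or 11 (adjusted p = 0.104, 0.0952 and 0.0561) and without CSS1 replicate 3, 6 or 9 (0.065, 0.0678 and 0.0763). In CSS2 they included each fit without 1 mouse except that without CSS2 replicate 7, and among the rest the adjusted p was 0.0547 to 0.162.

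Of the sodium pump subunits and their modulators, 6 of 9 were measured, 1 was lower in CSS1 and 0 were called in CSS2. Fxyd6, a modulator of the pump that supplies the gradients these carriers use, read 0.089, 0.031, 0.048 and -0.074 in Bl6, -0.36, -0.40, -0.49 and -0.16 in CSS1 and -0.13, -0.091, -0.11 and -0.26 in CSS2. Both CSS strains lay below all Bl6 mice. Fxyd6 fell by 0.38 ± 0.067 in CSS1 (adjusted p = 0.0181, limma), and the difference in CSS2 was -0.17 ± 0.067 (adjusted p = 0.427). The call was lost under 6 of 22 alternatives, with adjusted p up to 0.225. These included the fits without Bl6 replicate 2 or 5 (adjusted p = 0.0765 and 0.0634) and without CSS1 replicate 3 (0.0684). The median of the myelinating oligodendrocyte list described with Car2 stood above Bl6 in both CSS strains. That of the astrocyte list stood above Bl6 in CSS1 and overlapped it in CSS2. The part of both lists in the Neto2, Ano1, Ttyh2 and Fxyd6 values was not tested.

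**Figure D4:**
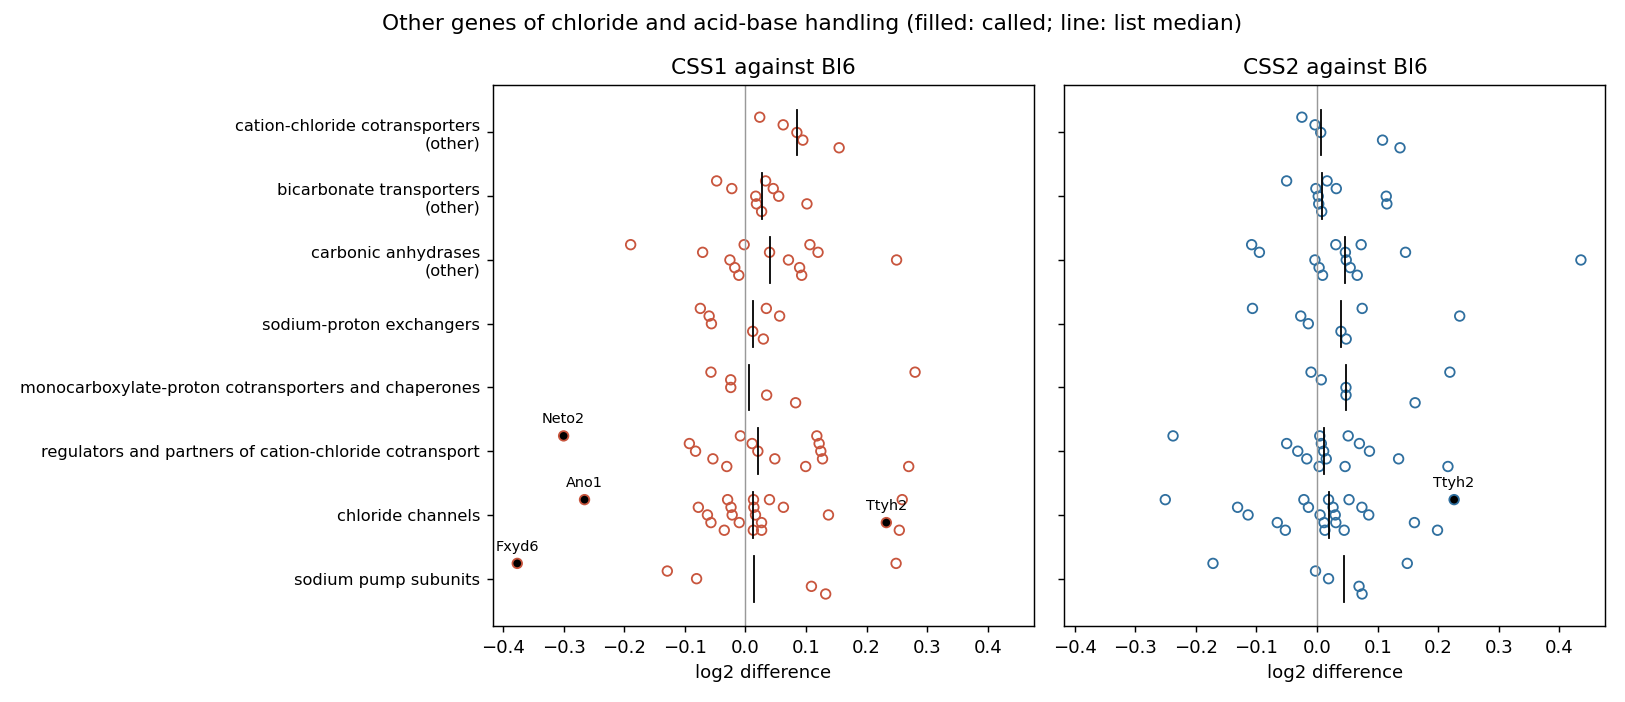
Difference of each CSS strain from Bl6 for the genes of the 8 pathway lists, in log2, with 1 point per measured gene at its brightest probe. Filled, named points passed the adjusted threshold, and the vertical line in each row is the list's median, which lies between 0.0056 and 0.085.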

How the data were processed

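Spot intensity values, the mean signal and median local background of each channel, were deposited as one scanner file per array, not background-subtracted, per the file headers. A table of log2 ratios of sample over Bl6 pool, normalized by the authors with a method not given in the sources used here, was deposited too and served as an alternative. On 12 of 12 arrays these log2 ratios of the authors rise with sample over reference, their medians lie between -0.00502 and 0.00585, and their scale and centring stay otherwise unknown. RNA was isolated with Trizol and amplified and labelled by robot, per the labels.

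Background was corrected with normexp (offset 50) and dye bias with loess, control and quality spots given no weight (limma 3.58.1, R 4.3.3). The offset draws log ratios of dim probes towards 0. Every ratio was turned to sample over pool. Probes under the 95th percentile of control spots, a log2 intensity of 6.23, were left out, which removed 190 of 39429 gene probes. Each probe was fitted over 12 arrays with strain and dye terms and moderated variance (8 residual and 3.21 prior degrees of freedom). P-values were adjusted by Benjamini-Hochberg over 39239 probes, and a gene was called at an adjusted p under 0.05 at its brightest probe. The fit was tested on simulated data. Gene names came from the platform annotation, updated through RefSeq (28427 kept probes by current symbol, 3816 by an older symbol, 63 with the platform's symbol, 6933 unnamed). Probes were numbered by brightness.

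The members and gene lists were chosen with earlier results of these data known. All 8 members are named with all probes. Of each pathway list up to 3 called genes with the lowest adjusted p are named, or else the gene with the lowest p in either strain against Bl6, and of each marker list up to 2, the brightest. Genes most like a called member were to be named, and no member was called. Marker lists of interneurons, oligodendrocyte precursors, endothelial and mural cells, microglia, meninges, striatum and thalamus were also read, and the closing section gives them.

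The median sample signal per array was 187.8 to 407.6 intensity units, and 89.6% to 99.9% of gene probes were above background. Arrays of the same dye orientation correlated at 0.168 to 0.7 over all probes. The number of arrays, 4 per strain, limits the precision. Alternatives were the background correction, the normalization, the filter, the dye term, array weights, the strains fitted, a block of consecutive mouse numbers, the authors' values, the mean over probes and leaving out each mouse.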

Additional observations from a re-analysis of the deposited data

Results flagged for a closer look

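Of 36 groups of 4 mice checked over the 12 probes, 2 held a mouse that lay far from the other 3 of its strain by Dixon's test, and chance alone marks about 1 in 20 such groups. Slc12a2 read 0.0548 log2 in CSS2 mouse 1, and the other 3 CSS2 mice read 0.3707 to 0.4212. The array of CSS2 mouse 1 had the lowest share of gene probes above background, 89.6%, beside 97.5% to 99.9% on the other 11, and the part of that in the Slc12a2 value was not tested. Without CSS2 replicate 1 the Slc12a2 difference from Bl6 was 0.35 log2, with an adjusted p of 0.247. Slc4a8 read 0.088 log2 in Bl6 mouse 8, and the other 3 Bl6 mice read -0.1049 to -0.0797. Without Bl6 replicate 8 the Slc4a8 difference was 0.19 log2 in CSS1, with an adjusted p of 0.081.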

How the results depend on the processing

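The count of the 8 genes called stayed at 0 in all 3 comparisons under all 22 alternatives run, with the lowest adjusted p of a brightest probe at 0.0722 (limma). Of 780 recomputed probe results, 746 kept their sign and their side of the threshold, 31 changed sign without a call, and 3 became called, all for probe 3 of Slc4a3 in CSS1 against Bl6. Among the sign changes was Slc4a3 in CSS1 against Bl6, at 0.044 log2 for the mean over its probes. The number of all genes called moved more. From 439 in CSS1 against Bl6 it went to 117 with median centring in place of loess, 147 without a dye term, 1046 with array weights and 237 with only the 2 strains compared, and without single mice it ran from 158 to 537. From 225 in CSS2 against Bl6 it went to 119 with median centring, 92 without a dye term and 385 with array weights, and without single mice it ran from 108 to 228. With median centring 74.8% of the CSS2 calls were higher, and with the block of consecutive numbers 48.1% of 320 were, beside 63.6%. From 210 in CSS1 against CSS2 it went to 96 with median centring, 113 without a dye term and 132 with only the 2 strains compared, and without single mice it ran from 139 to 211. The lowest counts without single mice came without Bl6 replicate 2 in the first comparison and without CSS2 replicate 10 in the others. The cause was not tested. The strains share no replicate (mouse) numbers, so no pairing by number was fitted. The block of consecutive numbers, each holding a mouse of every strain, was the only matched fit. Slide or scan as a block was not run, since no slide or scan is used here.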

Other observations

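Some markers of other cell types that hold these transporters stood apart between strains. Of 7 genes of oligodendrocyte precursors, 0 were called in CSS1 and 2 higher in CSS2. Olig1, a transcription factor of the lineage, rose by 0.38 ± 0.046 log2 in CSS2 against Bl6 (adjusted p = 0.00193, limma) and differed by -0.26 ± 0.046 in CSS1 against CSS2 (adjusted p = 0.0208). The latter call was lost under 6 of 22 alternatives, and the former under none. The list's median per mouse was -0.070 to 0.0083 in Bl6, -0.054 to 0.029 in CSS1 and 0.085 to 0.20 in CSS2. Of 8 interneuron genes, 2 were called higher in CSS1 and 1 in CSS2, and the list's median per mouse was -0.12 to 0.084, 0.018 to 0.14 and -0.046 to 0.16 in the 3 strains.

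Of 7 endothelial and mural genes, 1 was called, lower in CSS1, and the list's median difference was -0.031 in CSS1 and 0.028 in CSS2. The gene was Rgs5, a marker of pericytes on chromosome 1, named after its values were seen, which read lower by 1.24 ± 0.058 log2 (adjusted p = 1.7e-06, limma). Sequence differences between the strains under its probe were not looked at. No gene was called among 7 microglial, 6 meningeal, 3 measured striatal and 5 thalamic markers in either strain against Bl6. Their median differences were 0.078, -0.13, 0.12 and -0.12 in CSS1, and 0.011, -0.19, 0.12 and 0.010 in CSS2.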
